A study of Danio rerio with 13 samples.

Results

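The summits described here lie near the ends of the zebrafish chromosomes. They are all the summits of the 8 IP lists in the first 2 Mb and the last 2 Mb of chr1 to chr25, without the right end of chr4, where the length of a chromosome is the last summit position in any list. This gives 49 ends, 25 left and 24 right, which together span 98 Mb or 7.32% of the length considered. They hold 44972 of the 159142 summits in the 8 lists, and 108005 summits lie in the 1240.3 Mb between them, called the interior below.

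In 6mA-IP-seq, an anti-6mA antibody enriches fragments of gDNA, and a summit is a position of maximum signal in a peak called against input. The embryos came from the Tubingen zebrafish line and were taken at the 64-cell stage (64C) or at 11, 12 or 13 h post fertilization (hpf), with no other treatment. The SYSY antibody was used on 2 biological replicates at each of 11, 12 and 13 hpf, and both replicates of a stage had 1 input in common. At 64C there was 1 library with the SYSY antibody and 1 with the Abcam antibody, so that antibody and library cannot be told apart there.

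The 6mA base is adenine with a methyl group on its exocyclic nitrogen. In bacteria it lets a cell tell its own DNA from foreign DNA, and in most cells and tissues of vertebrates it is far rarer than 5mC. The tips of chromosomes are telomeres, arrays of a short repeat that keep the ends from being joined or lost, and next to them lie subtelomeres, which in many species are rich in repeats and in copies shared between chromosomes. A left end here is counted from position 1 and a right end from the last summit of any list, neither from a mapped telomere. A right end therefore has a summit of some list at its tip by definition. The first summit on a chromosome lies between position 37 and position 14713 (median 390).

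Each list has its own length, and read depth is unknown, so that numbers of summits are not compared between libraries. The 64C SYSY list stops before the others on the right ends of chr6, chr15, chr18 and chr21, by 328 to 1337 kb. On chr4 it stops 14642 kb before the last summit of any list. Part of the chr4 interior, still counted in the interior length, thus has no summit of this list. The list also has 140 bins of 100 kb in the genome that are dense in that list alone. Values of this list that change with these ends or bins by over 1.5 times or in sign are given with and without them.

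Near the chromosome ends summits were 8.72 to 10.8 times as dense as in the interior at 11 to 13 hpf. By library, the ends of 11 hpf held 2991 summits in replicate 1 and 1881 in replicate 2, those of 12 hpf 1481 and 1683, and those of 13 hpf 1271 and 963. In the same order these are 30.5, 19.2, 15.1, 17.2, 13.0 and 9.83 summits per Mb. The interior of the same libraries had 0.957 to 3.09 summits per Mb, so that the lowest end density lies above the highest interior density. The mean ratio of the densities was 9.81 ± 0.744 (SD, n = 6 libraries), or 3.29 ± 0.11 on the log2 scale. An exact two-sided sign-flip permutation test over the 6 libraries gave p = 0.0312, the smallest p that 6 libraries allow, and 0.0547 after Benjamini-Hochberg adjustment over 7 tests, which misses 0.05 although the ends were denser in 6 of 6 libraries. All tests here start from libraries that share a genome and, within a stage, an input, so that their p-values measure only how alike the libraries are.

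Counted as a share, 43.4% ± 1.86 (SD, n = 6) of the later summits on numbered chromosomes lay near the ends, from 40.6% in replicate 1 of 13 hpf to 45.8% in replicate 2 of 11 hpf. The mean share was 44.7% ± 1.51 for 11 hpf, 43.0% ± 1.42 for 12 hpf and 42.6% ± 2.81 for 13 hpf, with 2 libraries each. This spread of 2.14 percentage points between stages did not pass the test (exact permutation of the stage labels, 15 pairings, p = 0.667, smallest possible p 0.0667), and it was 1.08 without replicate 2 of 11 hpf and 4.13 without replicate 2 of 13 hpf.

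At 64C the ends held 16090 summits of the Abcam list and 18612 of the SYSY list. Their shares were 32.0% (95% Wilson interval 31.6 to 32.4%) with the Abcam antibody and 23.5% (23.2 to 23.8%) with the SYSY antibody. End density was 5.98 times that of the interior with Abcam and 3.88 times with SYSY, both below every later library. Without the dense bins, the SYSY share was 28.5% (28.2 to 28.9%) and the ratio of densities 5.05, and without the right ends on which the list stops short 22.4% and 3.98. These bins hold 14569 of the 60678 SYSY summits of the interior and 216 (1.16%) of those near the ends. The intervals here and below cover counting error only.

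**Figure D1:**
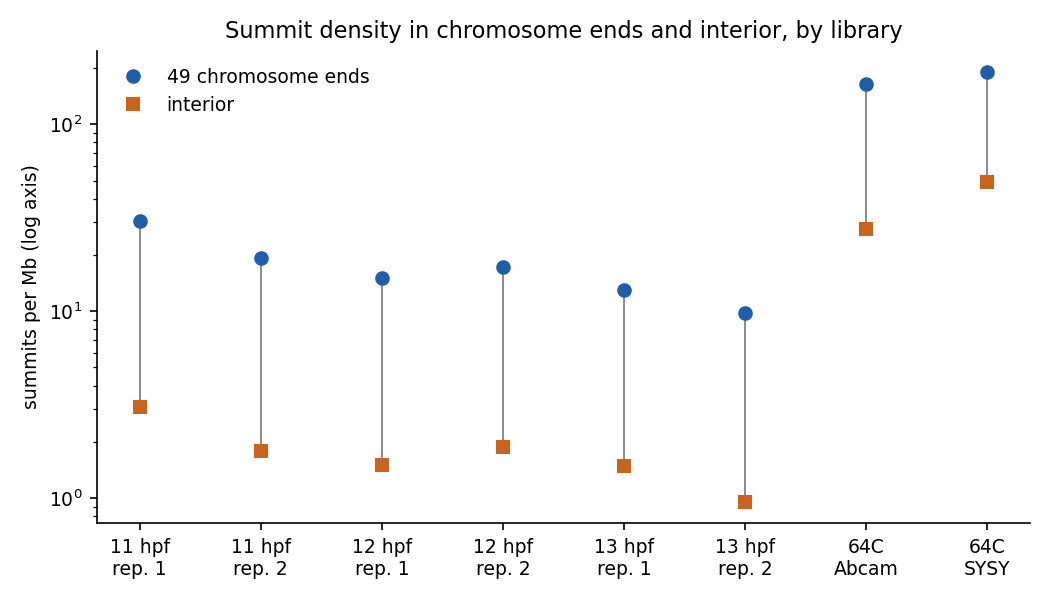
Summits per Mb (log axis) in the 49 chromosome ends (circles) and in the interior (squares) for each of the 8 libraries, with a line joining the values of 1 library. In the 6 libraries of 11 to 13 hpf the end density is 8.72 to 10.8 times the interior density, and at 64C it is 5.98 times (Abcam) and 3.88 times (SYSY).

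The higher density near the ends was also seen in the spacing of summits. No comparison was made with the spacing that this density alone would give. The median gap to the next summit of the same list was 4622.5 to 21282 bp near the ends and 92302 to 263106 bp in the interior of the 6 later libraries. A summit fell in 55.8% ± 8.86 of the 100-kb bins of the ends and in 11.2% ± 3.8 of those of the interior (SD, n = 6). Every one of the 49 ends had summits in all 6 later libraries and in both 64C lists. A peak can carry more than 1 summit, and 8.09% ± 1.23 of the peaks near the ends did so against 5.26% ± 1.23 in the interior (SD, n = 6).

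The density was highest in the outermost 100 kb and fell inwards. In that step it was 27.9 ± 4.53 times the interior density at 11 to 13 hpf, from 20.9 to 32.8 times, against 17.1 ± 2.11 times from 100 to 200 kb and 12.3 ± 1.88 times from 200 to 300 kb (SD, n = 6). From 500 kb inwards the steps lay between 5.32 and 10.1 times the interior, with no steady order, and the last step, 1900 to 2000 kb, still had 6.46 ± 0.439 times. The first 100 kb hold 14.1% ± 1.42 of the end summits and the first 500 kb 41.1% ± 1.73 (SD, n = 6). Between 38 and 47 of the 49 ends had a summit in the first 100 kb, depending on the library.

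Within the ends, the outer Mb held 1.51 to 1.94 times as many summits as the inner Mb in the 6 later libraries. The mean was 0.83 ± 0.13 on the log2 scale (SD, n = 6; exact sign-flip permutation p = 0.0312, adjusted 0.0547), with more summits in the outer Mb in 6 of 6 libraries. At 64C the outer Mb held 1.48 times as many with Abcam and 1.69 times as many with SYSY. The rise began further inwards than the 2 Mb taken as an end. In 1-Mb steps from the end, the mean density at 11 to 13 hpf was 12.6, 7.06, 3.75, 2.73 and 1.81 times that of the interior. It was higher again from 5 to 6 Mb, with 2.24 ± 0.279 times, and reached 0.913 ± 0.0729 times from 9 to 10 Mb (SD, n = 6). There the 64C libraries had 0.958 times the interior density with Abcam and 1.08 times with SYSY, or 0.978 times without the dense bins. The interior density includes the raised steps beyond 2 Mb, so that it is not a flat background.

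**Figure D2:**
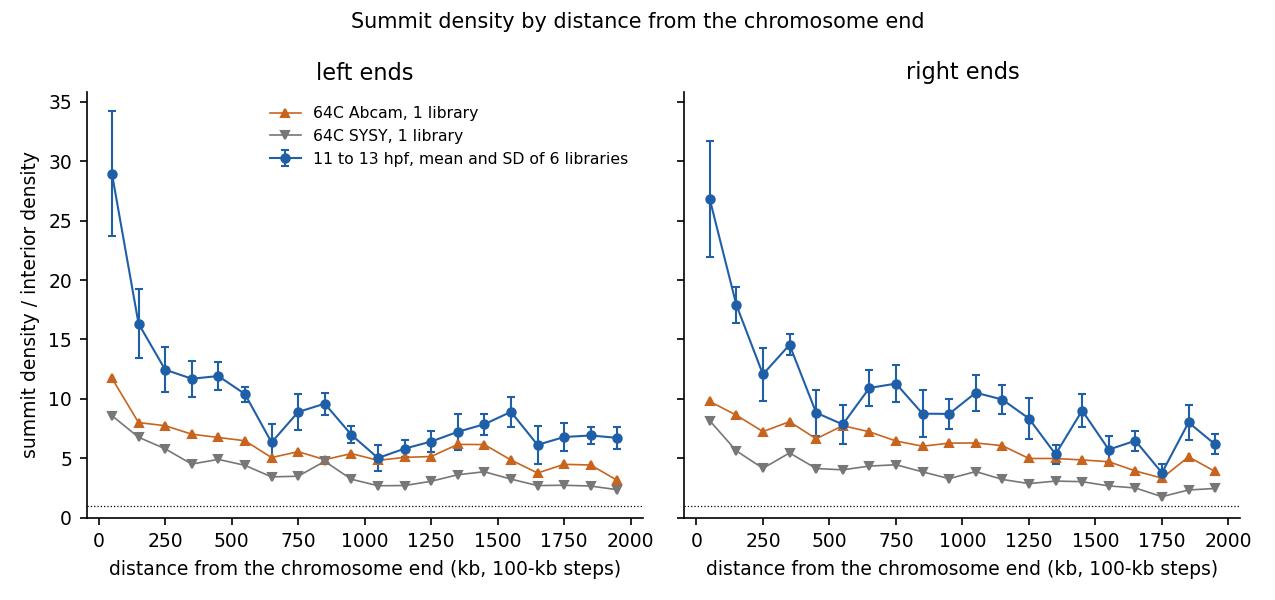
Summit density divided by interior density against distance from the chromosome end in 100-kb steps, for left ends (left panel) and right ends (right panel). Circles are the mean of the 6 libraries of 11 to 13 hpf with SD, triangles the 64C Abcam and 64C SYSY libraries, and the dotted line is the interior density; the outermost step is the highest in every line.

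Left and right ends had nearly the same number of summits in total, while the ends of 1 chromosome often differed. Over the 24 chromosomes with both ends, left against right was 1436 against 1502 and 923 against 928 in replicates 1 and 2 of 11 hpf, 728 against 726 and 816 against 834 for 12 hpf, and 603 against 654 and 449 against 499 for 13 hpf. The log2 ratio was −0.062 ± 0.062 (SD, n = 6), below 0 in 5 of the 6 libraries (exact sign-flip permutation p = 0.0625, adjusted 0.0875). Without chr15, chr21 and chr23, left out after their values were seen, it was 0.051 ± 0.068, a shift that follows from the choice of chr15 and chr23, the chromosomes heaviest on the right. Without chr4, chr6, chr15, chr18 and chr21 it was −0.0097 ± 0.053 (exact sign-flip permutation p = 0.688). At 64C the log2 ratio was −0.064 with Abcam and 0.066 with SYSY, or −0.033 with SYSY without chr6, chr15, chr18 and chr21.

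By step, both sides started high, with 28.9 ± 5.27 times the interior density in the first 100 kb of the left ends and 26.8 ± 4.85 times in that of the right ends (SD, n = 6). Further in, the order of the sides changed from step to step. From 1000 to 1100 kb the right ends had 10.5 ± 1.50 times and the left ends 5.03 ± 1.12 times the interior density, and from 1500 to 1600 kb the left ends had 8.91 ± 1.29 times and the right ends 5.74 ± 1.16 times.

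Of the 24 chromosomes, 6 had more summits at the left end in all 6 later libraries (chr8, chr14, chr19, chr21, chr22 and chr25), 6 had more at the right end in all 6 (chr11, chr13, chr15, chr18, chr20 and chr23), and 12 were mixed. The sides of the 12 chromosomes that were not mixed were the same in the Abcam list for all but chr8. In the SYSY list they were the same for all but chr18, where that list stops short. On chr21 the SYSY list covers only 663 kb of the right end, with 43 summits there against 660 at the left end. Its side on chr21 therefore cannot count as agreement. The right end of chr23 had 3.85 times as many summits as its left end, the right end of chr15 3.36 times and the right end of chr20 2.27 times, with the numbers of the 6 libraries added. Added in the same way, the left end of chr22 had 2.69 times as many as the right end, and that of chr21 2.13 times.

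**Figure D3:**
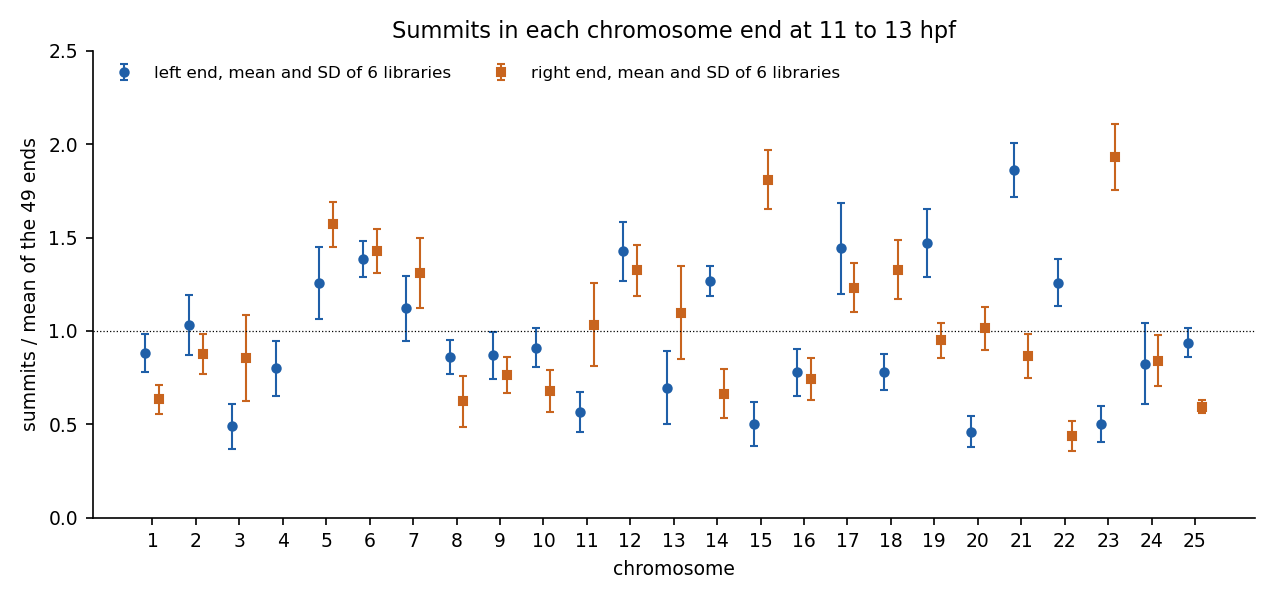
Summits in each chromosome end divided by the mean of the 49 ends of the same library, for chr1 to chr25, as mean and SD of the 6 libraries of 11 to 13 hpf (circles left, squares right; the right end of chr4 is not included). The values run from 0.438 at the right end of chr22 to 1.93 at the right end of chr23.

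The 5 ends with the highest density relative to the mean of all ends were the right end of chr23, the left end of chr21, the right end of chr15, the right end of chr5 and the left end of chr19. The last 2 Mb of chr23 (chr23:44266895-46266894) held 131 and 78 summits in the replicates of 11 hpf, 55 and 65 in those of 12 hpf, and 43 and 40 in those of 13 hpf, which is 1.93 ± 0.177 times the mean end (SD, n = 6). The first 2 Mb of chr21 held 100 and 79, 59 and 61, and 48 and 37 summits, or 1.86 ± 0.145 times. At the right end of chr15 the value was 1.81 ± 0.159 times, at the right end of chr5 1.57 ± 0.119 times and at the left end of chr19 1.47 ± 0.182 times. The right ends of chr15 and chr5 differ by more than either SD, and the other neighbours in this order by less than their SD.

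At the other extreme were the right end of chr22 with 0.438 ± 0.0791 times the mean end, the left end of chr20 with 0.461 ± 0.0831, the left end of chr3 with 0.489 ± 0.119, the left end of chr23 with 0.502 ± 0.0969 and the left end of chr15 with 0.504 ± 0.117 (SD, n = 6). These 5 do not differ beyond their SD. In the last 2 Mb of chr22 (chr22:37226115-39226114) the replicates of 11 hpf had 30 and 19 summits, those of 12 hpf 15 and 13, and those of 13 hpf 12 and 6. Chr15 and chr23 thus have 1 end among the 5 densest and the other among the 5 sparsest.

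This order was alike between libraries. Over the 49 ends, Pearson's r of the number of summits was 0.89 on average for replicates of a stage (0.87 to 0.93, 3 pairs) and 0.87 for libraries of different stages (0.85 to 0.90, 12 pairs). With the 64C Abcam list, r averaged 0.85, and with the 64C SYSY list 0.63, or 0.75 without the right ends on which that list stops short. These values describe the ends only, which are the same sequence in all libraries, and no p is given.

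The ends also differed in how their summits were laid out. In 40 of the 49 ends more of the later summits lay in the outer Mb than in the inner Mb, and the outer share had a median of 63.2%. At the right end of chr24, 168 of 172 later summits (97.7%) were in the outer Mb, and at the left end of chr3, 19 of 101 (18.8%). The fall of density from the tip is thus a mean over ends, and single ends go against it.

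The score of a summit is the −log10 of its q-value from the peak caller, and here it was used only as a rank within its own list, from 0 to 100. Near the ends the mean rank was 52.2 to 53.2 in the 6 later libraries, and in the interior 46.4 to 47.5, so that the ranges do not overlap. The difference was 5.55 ± 0.785 (SD, n = 6), with higher ranks near the ends in 6 of 6 libraries (exact sign-flip permutation p = 0.0312, adjusted 0.0547). Ranks were highest at the tip, with 59.6 ± 1.51 in the first 100 kb, 53.7 ± 0.625 in the outer Mb and 50.7 ± 0.698 in the inner Mb. The left ends had 51.6 ± 0.752 and the right ends 53.6 ± 0.318. By end, the mean rank ran from 41.9 at the left end of chr24 to 68.0 at the right end of chr22, which is also the sparsest end, and it was above 50 in 34 of the 49 ends.

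When each list was split into 10 bands by the percentile rank of the score, 36.9% ± 3.13 of the summits in the lowest band and 56.6% ± 2.49 of those in the highest lay near the ends (SD, n = 6). Tied scores make the bands unequal, with 190 to 419 summits in replicate 1 of 12 hpf and 2870 to 10148 in the 64C SYSY list. The ranges of these bands over libraries, 32.6 to 41.1% and 52.1 to 59.1%, do not overlap. Up to band 7 the means stayed between 36.9 and 42.9%, and then they went up.

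At 64C this order of scores was not seen. The mean rank near the ends minus that of the interior was −0.41 in the Abcam list and −1.97 in the SYSY list. In the Abcam list, 30.1% (95% Wilson interval 28.8 to 31.3%) of the highest band lay near the ends, and in the SYSY list 9.14% (8.53 to 9.80%), or 39.4% (37.0 to 41.8%) without the dense bins. Without the dense bins, the mean rank of the SYSY end summits was 48.2 and that of the interior 41.8, which is 6.34 higher near the ends. The sign of the SYSY difference thus changes with these bins, while the Abcam difference was −0.42 without them.

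**Figure D4:**
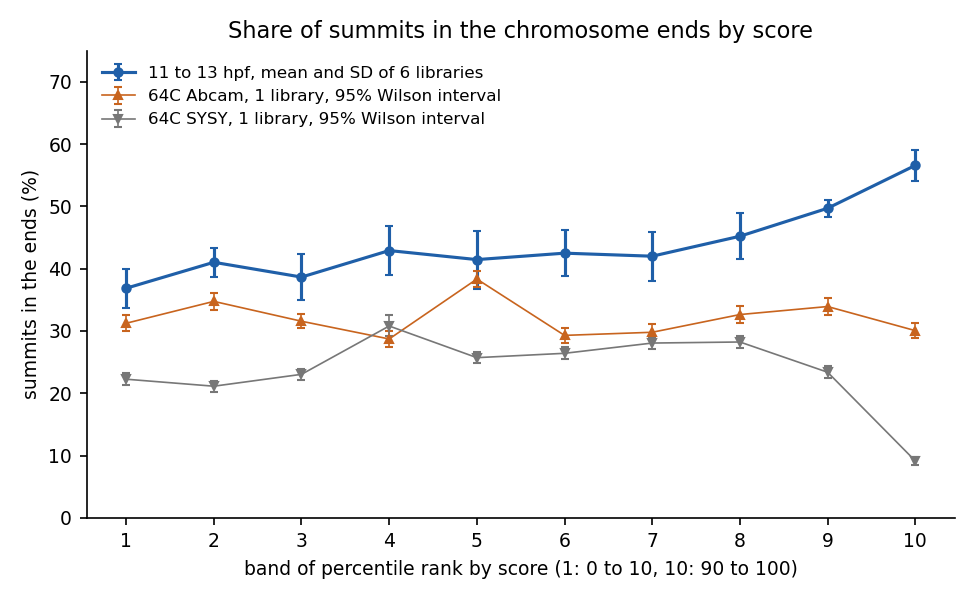
Percent of summits that lie in the chromosome ends in each of 10 bands of a list by percentile rank of the score, from the lowest (1) to the highest (10), for summits on numbered chromosomes. The mean of the 6 libraries of 11 to 13 hpf (circles, SD) goes from 36.9% to 56.6%; the 64C Abcam list is at 30.1% and the 64C SYSY list at 9.14% in the highest band (95% Wilson intervals).

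Summits near the ends recurred at other stages more often than those of the interior when all summits were taken. A later summit was counted as recurrent when each of the other 2 later stages had a summit within 250 bp. This held for 33.8% and 43.1% of the end summits in replicates 1 and 2 of 11 hpf, 47.3% and 45.6% for 12 hpf, and 55.8% and 64.5% for 13 hpf. In the interior it held for 25.5% and 34.9%, 37.1% and 33.7%, and 38.2% and 51.2%. Over all numbered chromosomes the shares were 29.2% and 38.7% for 11 hpf, 41.7% and 38.8% for 12 hpf, and 45.5% and 57.4% for 13 hpf. The value of a library was built from matches to the libraries of the other stages. The 6 values are thus not independent units for the test, also when the interior is weighted. The difference between ends and interior was 11.6 ± 3.52 percentage points (SD, n = 6; exact sign-flip permutation p = 0.0312, adjusted 0.0547), above 0 in 6 of 6 libraries.

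This difference turned when interior summits were weighted to resemble those of the ends. Summits were grouped by score into 4 classes of percentile rank and by the number of other summits of the same list within 50 kb (0, 1 to 2, or 3 or more), and the interior share was weighted to how the end summits fall into these groups. Against this interior, a comparison chosen after seeing the data, the difference in recurrence was −5.65 ± 3.51 percentage points (SD, n = 6; exact sign-flip permutation p = 0.0312, not adjusted), lower near the ends in 6 of 6 libraries. When summits within 500 bp were first joined, also chosen after seeing the data, the difference was 3.46 ± 2.86 in favour of the ends (exact sign-flip permutation p = 0.0625). Joining without weighting gave a difference of 10.4 ± 3.15 in favour of the ends (SD, n = 6). Recurrence near the ends was therefore above, below or near that of the interior, depending on the weighting of the interior and on joining. Score and neighbours were weighted only together, so that the part of each in the change of sign was not tested.

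Taken as regions, with summits of any list chained within 250 bp, 3151 regions near the ends had a later summit, or 32.2 per Mb, against 4.54 per Mb in the interior. Of these, 617 (19.6%) had a summit at all 3 later stages, against 14.8% of the regions of all numbered chromosomes and 12.0% of the 5635 in the interior. All 6 later lists had a summit in 219 of them (6.95%), against 4.56% over all numbered chromosomes. End regions were wider, with a median of 273 bp against 148 bp in the interior. The region shares were not weighted for width or for how crowded summits were. All 49 ends had such a 3-stage region, between 4 and 28 of them. The right ends had 336 of 1594 regions at 3 stages (95% Wilson interval 19.1 to 23.1%) and the left ends 281 of 1557.

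Regions of a single later stage made up 55.5% (53.7 to 57.2%) of those near the ends, against 63.8% over all numbered chromosomes and 68.6% in the interior. Regions of 11 hpf only were 31.4% of the end regions and 32.6% over all numbered chromosomes, those of 12 hpf only 15.6% and 19.3%, and those of 13 hpf only 8.47% and 11.8%. The lists differ in length, so that these shares are not compared between stages, and they were not weighted for width or crowding.

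Replicates shared a larger part of their summits near the ends than in the interior, in both directions of all 3 replicate pairs. The values of a stage come from the same pair read in both directions, so that they are not independent. In replicates 1 and 2 of 11 hpf, 51.0% and 72.1% of the end summits had a summit of the other replicate within 250 bp. At 12 hpf the shares were 56.9% and 51.5%, and at 13 hpf 46.7% and 61.4%. The interior had 39.1% and 63.2%, 47.3% and 39.4%, and 34.1% and 52.4%, and all numbered chromosomes together 44.4% and 67.4%, 51.6% and 44.6%, and 39.3% and 56.4%. The ends were higher by 8.90 to 12.7 percentage points. The first 100 kb had the highest share, 67.9% ± 5.61, against 59.2% ± 8.95 in the outer Mb and 52.1% ± 9.47 in the inner Mb (SD over both directions of 3 pairs). Left and right ends had 56.4% ± 9.19 and 56.8% ± 9.11.

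Against interior summits weighted in the same way by score class and neighbours, the ends shared less. The weighted interior shares were 58.1% and 76.6% for 11 hpf, 65.5% and 55.5% for 12 hpf, and 50.8% and 66.0% for 13 hpf. The ends were thus lower in both directions of all 3 pairs. Averaged over both directions, the difference was −5.48 ± 1.02 percentage points (SD, n = 3 replicate pairs; exact sign-flip permutation p = 0.25, adjusted 0.292), and 3 pairs cannot give a p below 0.25. With ends of 1 Mb it was −1.91 ± 1.84 (exact sign-flip permutation p = 0.5). Weighting by score alone left the ends 7.69 higher, and weighting by neighbours alone gave a difference of −4.94. The difference was thus negative only in weightings that included neighbours. With neighbours counted from 500 bp it was −2.75. Number of neighbours and close clusters of summits cannot be told apart here, and the cause was not tested.

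By neighbours, the shares crossed. Summits with no other within 50 kb were shared in 39.8% ± 10.1 of cases near the ends and 28.7% ± 9.77 in the interior, those with 1 to 2 neighbours in 48.2% ± 8.59 and 49.8% ± 12.5, and those with 3 or more in 64.7% ± 10.5 and 74.9% ± 8.19 (SD over both directions of 3 pairs). The last group holds 57.7% of the end summits and 23.1% of the interior summits. With summits joined within 500 bp, the difference from the weighted interior was 1.37 ± 2.59 (SD, n = 3 pairs; exact sign-flip permutation p = 0.5).

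**Figure D5:**
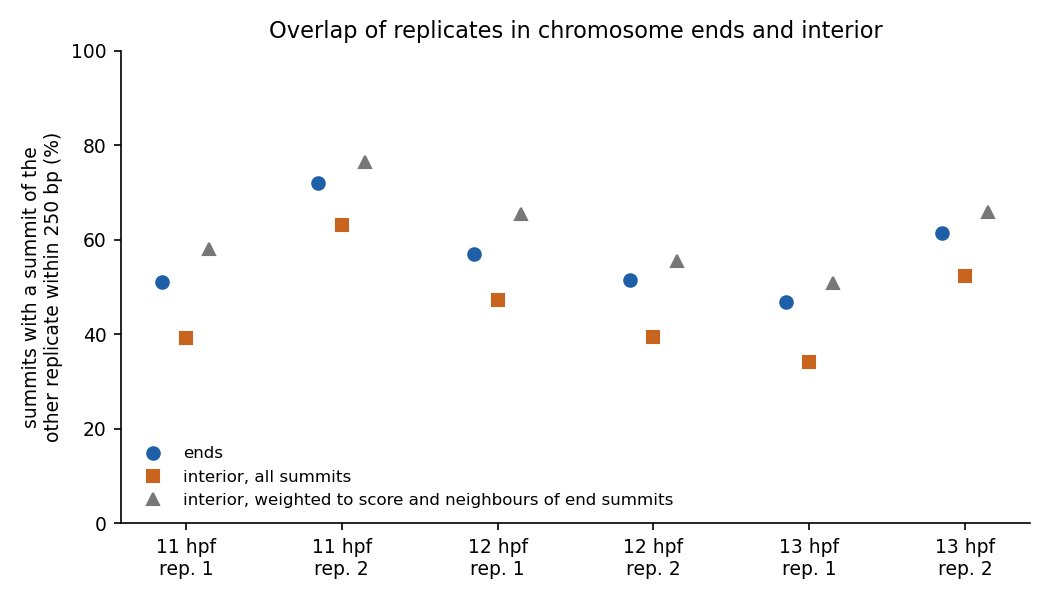
Percent of summits with a summit of the other replicate of the same stage within 250 bp, for each of the 6 libraries of 11 to 13 hpf, near the ends (circles), in the whole interior (squares) and in the interior weighted to the score class and neighbours of the end summits (triangles). In every library the ends lie above the whole interior, by 8.90 to 12.7 percentage points, and below the weighted interior.

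Single ends shared between 40.9% and 69.5% of their summits between replicates, with the summits of the 6 libraries added. The lowest was the left end of chr24 (74 of 181) and the highest the left end of chr22 (178 of 256). The left end of chr24 also had the lowest mean rank of all ends.

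Most later summits near the ends had a 64C summit within 250 bp, given here as values without a test. Within 250 bp of a 64C SYSY summit lay 86.1 to 90.9% of the end summits of a later library, against 79.2 to 88.6% in the interior. Without the right ends on which that list stops short, the end share was 90.1 to 94.9%. The interior share was not corrected in this way for the part of chr4 where that list has no summit to match. Within 250 bp of a 64C Abcam summit lay 82.5 to 85.1% near the ends and 68.8 to 76.2% in the interior. The 64C lists are themselves denser near the ends, and these shares were not weighted for it. Abcam had 164 summits per Mb there against 27.5 in the interior, and SYSY 190 against 48.9. Over all numbered chromosomes, the later summits together had 85.2% with SYSY and 77.3% with Abcam. By region, 255 of the 3151 end regions (8.09%, 95% Wilson interval 7.19 to 9.10%) had no summit in either 64C list, against 11.8% over all numbered chromosomes, and 64.9% (63.2 to 66.5%) had one in both, against 55.8%.

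In the other direction, 42.4% (41.6 to 43.1%) of the Abcam end summits at 64C and 35.4% (34.8 to 36.1%) of the SYSY end summits had a summit of a later library within 250 bp, and without the dense bins the SYSY share was 35.7%. Over all numbered chromosomes these shares were 30.8% and 20%, and in the interior 25.2% and 15.3%, all with the dense bins included. Without the dense bins the SYSY interior share was 19.7%. The later lists are also denser near the ends, and these shares were not weighted for it.

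The lists of the SYSY and Abcam antibodies overlapped more near the ends at 64C, with 1 library each and no test. Of the Abcam end summits, 69.2% (95% Wilson interval 68.5 to 70.0%) had a SYSY summit within 250 bp, against 53.3% in the interior, 60.3% in the interior weighted by score class and neighbours, and 58.3% over all numbered chromosomes. Without the right ends of chr6, chr15, chr18 and chr21 it was 72.3%, while the interior was not corrected for the part of chr4 without SYSY summits. Of the SYSY end summits, 55.3% (54.6 to 56.0%) had an Abcam summit within 250 bp, against 26.6% in the interior, 29.3% in the weighted interior and 33.4% over all numbered chromosomes. Without the dense bins these were 55.9% near the ends and 34.8% in the interior, or 40.5% when weighted. The dense bins were chosen for few Abcam summits relative to SYSY, so that leaving them out raises these shares by construction. In the 64C lists 98.7% (Abcam) and 99.0% (SYSY) of the end summits have 3 or more neighbours within 50 kb, so that the classes of neighbours hardly separate them. The list of the other antibody is also denser near the ends, and these shares were not weighted for its density.

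All 8 lists had a summit in 184 of the end regions (5.84%, 5.07 to 6.71%), against 3.72% over all numbered chromosomes. These 184 regions were spread over 47 of the 49 ends, with 91 at left ends and 93 at right ends, and 11 of them at the right end of chr12, the most in 1 end. There were 38 in the first 100 kb and 121 in the outer Mb, and their median width was 666.5 bp. The share of 5.84% was not weighted for width or for the higher density of the lists near the ends.

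The 5 with the best mean rank over the 8 lists are given by position, as danRer10 coordinates, since a genome of that build was not used here and their genes and repeats are not given. The region chr23:44770024-44770397 lies 1497 kb from the right end and had 3 to 4 summits in each list, with a best score of 14.0 to 28.9 in the later libraries (median 23.4), 13.3 with Abcam and 116 with SYSY at 64C. At the left end of chr21, 222 kb from the tip, chr21:221747-222595 had 3 to 5 summits in each later list and best scores of 11.6 to 29.2 (median 19.7). At the left end of chr9, chr9:30966-32567 lies 31.8 kb from the tip and had 4 to 10 summits in each later list, 11 in the Abcam list and 13 in the SYSY list. The best rank of these 3 regions was 92.3 or higher in every list.

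The other two of the 5 were more uneven between lists. The region chr22:133083-133167 at the left end is 85 bp wide, had 1 to 2 summits in each list, and its best rank was 84.6 in replicate 2 of 11 hpf and 97.2 to 99.8 in the other lists. The region chr20:55006720-55008890, 332 kb from the right end and 2171 bp wide, had the first rank of its list in replicate 1 of 13 hpf (score 31.9) and ranked 96.6 or higher in every later library, but 79.8 in the Abcam list.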

How the data were processed

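Per the methods and labels, Bowtie (version 1.0 in the labels) aligned the reads to danRer10 and kept 1 random position where several fitted equally well. MACS2 then compared every IP library alone with its input (false discovery rate 0.01). For each of the 8 IP libraries the authors deposited summit positions with 1 value, the −log10 of the q-value; the 5 inputs served in the calling only. No value is below 2. Replicates were not pooled by the authors, and read depth is not given in the sources used here, so that the precision given by depth is unknown.

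Positions were counted from 1. Chromosome length, ends and interior followed the rule in the text, and summits within 250 bp were taken as shared. Tests were exact two-sided sign-flip permutations over the 6 later libraries or the 3 replicate pairs, and an exact permutation over 15 pairings for stages, adjusted by Benjamini-Hochberg over 7 tests. Nothing says whether the replicates came from separate clutches, so that p-values measure the spread between these samples, which may be technical. The counting was tested on simulated lists.

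The summits and comparisons were chosen with earlier results of these data known. Named were the 5 end regions with the best mean rank in all 8 lists and the 5 densest and 5 sparsest ends. Alternatives were ends of 1 or 3 Mb, a score filter at the median, 1 summit per peak, summits joined within 500 bp, the 2439 highest-scoring summits of every list, chromosomes left out, left ends counted from the first summit, matching within 100, 500 or 1000 bp, other weightings of the interior, no dense bins, replicates left out and a replicate block. Chosen after seeing the data were the weighted interior for recurrence (with and without joining), neighbours counted in the other replicate or from 500 bp, leaving out chr15, chr21 and chr23, and leaving out the ends on which the 64C SYSY list stops short. Dense bins have at least 20 summits of the 64C SYSY list and at least 10 times those of Abcam plus 1. Base composition, repeats and genes of the end regions were planned but not run, since no danRer10 genome or annotation was used here. Marks in the peak names differ between the later lists, the 64C SYSY list and the 64C Abcam list, and what they stand for is not given in the sources used here. Python 3.11.15, NumPy 2.4.6, pandas 2.3.3 and matplotlib 3.10.9 were used.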

Additional observations from a re-analysis of the deposited data

How the results depend on the processing

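The end density ratio, the outer against inner Mb and the score rank kept their direction in every alternative run. Left against right passed 0.05 unadjusted with ends of 3 Mb (−0.10), the score filter (−0.13) and joined summits (−0.087, log2; exact permutation p = 0.0312 each), was −0.0097 without chr4, chr6, chr15, chr18 and chr21, and turned to 0.051 without chr15, chr21 and chr23. The replicate overlap turned to 1.37 percentage points with joined summits, 7.69 when the interior was weighted by score only and 10.7 when it was not weighted. It shrank from −5.48 to −1.91 with ends of 1 Mb (exact permutation p = 0.5), −3.14 with the score filter, −3.53 with neighbours of the other replicate and −2.75 with neighbours from 500 bp. Recurrence turned to −5.65 with the interior weighted and lost its side of the threshold at 3.46 when summits were also joined. With 1 replicate left out no exact permutation p can go below 0.0625, and the values ranged from 3.26 to 3.32 for the end density ratio and 0.80 to 0.87 for outer against inner Mb (log2), 9.59 to 12.3 percentage points for recurrence and 5.29 to 5.72 for score rank. The stage difference ranged from 1.08 to 4.13 percentage points with 1 replicate left out and from 1.36 to 6.15 over the other alternatives. It was highest with the 2439 top-scoring summits (exact permutation p = 0.0667, the smallest possible p).

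The 64C SYSY share was 14.8% with ends of 1 Mb, 28.9% with 3 Mb, 23.8% with 1 summit per peak, 21.5% joined, 3.81% with the 2439 top-scoring summits, 24.1% without chr4, chr6, chr15, chr18 and chr21, 28.5% without dense bins, and 22.4% without the right ends on which the list stops short. The 64C Abcam share was 19.1%, 39.2%, 29.2%, 26% and 30.6% under the first 5 of these, 31.1% with the score filter and 29.6% without those right ends. The 3.81% of the SYSY list includes the dense bins, and its value without them is not given. In the highest score band of that list, 9.14% of summits lay near the ends with these bins and 39.4% without them. The cause was not tested.

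Replicate numbers did not pair the samples, with correlations of −0.04 to 0.01 of their deviations, and with a replicate block the stage difference of 2.14 percentage points kept p = 0.667 (exact permutation; smallest possible p 0.167). Unknown read depth limits all numbers of summits.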
